A study of Mus musculus with 4 samples.

Results

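The H3K9 methylation genes described here are 10 autosomal mouse genes that encode enzymes and partner proteins which write, read or erase methylation of lysine 9 on histone H3. They are Suv39h2, Setdb1, Setdb2, Ehmt1, Trim28, Atf7ip, Tasor (also written Fam208a), Mphosph8, Cbx5 and Kdm4c. They were taken by symbol from a list drawn up with earlier results of these data known, out of 20558 autosomal protein-coding genes with RefSeq coordinates on GRCm38.p6, the assembly that mm10 names. Comparisons with all genes are therefore descriptions. Around each gene, every deposited island of trimethylated H3K9 (H3K9me3) within 100 kb was listed. An island is a stretch that the authors' caller marked as enriched.

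H3K9me3 was profiled by chromatin immunoprecipitation and sequencing in mouse CD8+ T cells of the C57BL/6 background. The wild-type (WT) cells came from littermates and the knockout (KO) cells lacked the methyltransferase gene Suv39h1. Cells of both genotypes were grown for 3 days with activating anti-CD3 and anti-CD28 antibodies plus interleukin-2 (IL-2). There was 1 H3K9me3 library and 1 input library per genotype, and the inputs were not analysed here. The sources used here do not say how the knockout was made, whether cells were pooled, or the age of the mice.

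In all, 12371 islands were called in WT, holding 5547695 reads, and 25424 in KO, holding 10020253 reads. These are reads in called islands, and whole-library depth is unknown. With 1 library per genotype no test was possible. The values are set side by side, and intervals cover counting only. No gene of a check set of 14 T cell, B cell and myeloid loci had an island over it or within 2 kb in either list, so these lists do not tell the cell types apart. Over all autosomal protein-coding genes the shares were 14.8% in WT and 14.5% in KO. Within 100 kb, 5 of the 14 had a WT island and 2 a KO island, against 51.8% and 42.7% of all genes. Suv39h1 itself lies on chromosome X, where 2 WT and 9 KO islands were called, so its lack of an island is no check on the knockout.

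In silent chromatin, SUV39H1, its close relative SUV39H2 and SETDB1 place the trimethyl mark, and HP1 proteins bind it. TRIM28 brings SETDB1 to repeats and zinc finger gene clusters through zinc finger repressors, and the HUSH complex adds further silencing of transposons and newly inserted genes. Enzymes of the KDM4 family remove the mark. The genes of this machinery are themselves widely transcribed, and some lie near gene clusters that carry the mark.

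With the lists as deposited, islands were about as many around these genes in the KO library as in the WT library. Above their own list's median of reads per kb lay 16 of the 17 WT islands and 8 of the 14 KO islands. Over all islands within 100 kb of autosomal protein-coding genes, the shares above it were 54.6% in WT and 51.5% in KO. Of the 16 WT islands, 5 lay at Tasor, 3 at Trim28 and 3 at Atf7ip. Within 100 kb of the 10 genes lay 17 WT islands that covered 142.5 kb and 14 KO islands that covered 112 kb. Per gene this was a mean of 1.70 WT and 1.40 KO islands, against 1.13 and 1.44 over all autosomal protein-coding genes. That is 5.44% of the 2620 kb searched in WT and 4.27% in KO. More length was covered in WT around 6 genes and in KO around 3, and Cbx5 had no island in either. Among all autosomal protein-coding genes, 35.5% had more cover within 100 kb in WT and 24.2% in KO. The mean cover over those genes was 11.8 kb in WT and 13.3 kb in KO, against 14.2 kb and 11.2 kb for the 10 genes, and the medians were 4 kb and 0 kb against 11.8 kb and 7.75 kb.

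The total rests on Tasor and Kdm4c, which differed in opposite directions. Leaving out Kdm4c, WT islands covered 124 kb and KO islands 61 kb. Leaving out Tasor, the cover was 103.5 kb in each. No direction over the 10 genes as a group can therefore be read from the total. With another distance the sign of KO minus WT cover changed at Setdb2 (-5 kb within 50 kb), Trim28 (2 kb within 50 kb) and Ehmt1 (-14.1 kb within 200 kb), and at Setdb2 also among denser islands.

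**Figure D1:**
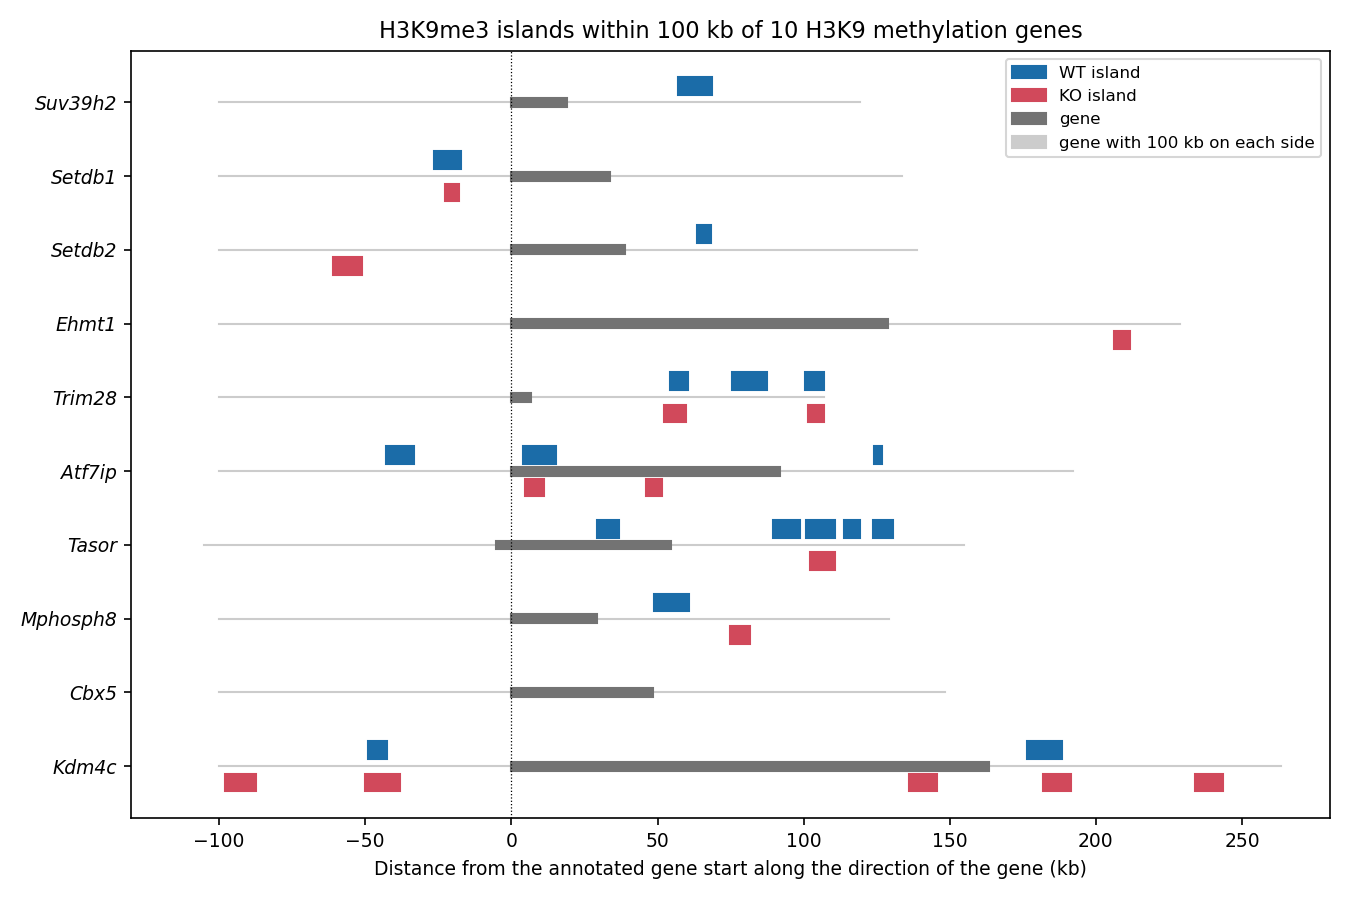
Islands of the WT library (blue, above each line) and of the KO library (red, below it) around the 10 genes. The horizontal axis gives the distance in kb from the gene start in the RefSeq promoter table along the direction of the gene, dark bars are genes and thin lines the searched windows. A reader should see 5 WT islands and 1 KO island at Tasor, and 2 WT islands and 5 KO islands at Kdm4c.

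An island within 100 kb was found for 8 of 10 genes in WT and 8 of 10 in KO (80%, exact 95% binomial interval 44.4 to 97.5 for each). Over all autosomal protein-coding genes the shares were 51.8% in WT and 42.7% in KO. Among genes with 1 to 12 protein-coding neighbours in the window, the range of the 10 genes, the shares were 51.8% and 42.5%. That range holds 18301 of the 20558 genes, so it hardly adjusts for gene density. The median number of neighbours was 4 in both of these sets and 5.5 for the 10 genes. The median window was 244 kb for the 10 genes and 218 kb over all genes, and the part of window length in these shares was not tested. In both genotypes 7 of 10 genes had an island (34.2% over all genes), Suv39h2 had one in WT alone (17.6%), Ehmt1 in KO alone (8.54%) and Cbx5 in neither (39.7%).

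Islands over the genes themselves were few. With 2 kb on each side, Atf7ip and Tasor had an island in WT, 2 of 10 genes, against 14.8% of all autosomal protein-coding genes. Atf7ip and Kdm4c had one in KO, again 2 of 10, against 14.5%. Atf7ip was thus covered in both (8.03% of all genes), Tasor in WT alone (6.77%) and Kdm4c in KO alone (6.52%). These counts are too small to stand apart from the shares over all genes.

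No island of either library reached a promoter window of the 10 genes. The RefSeq promoter table for GRCm38.p6 held all 10 genes, with 12 windows that run from 250 bases before a gene start to 50 after it. Over 20085 windows of autosomal protein-coding genes, 3.24% were touched by a WT island and 3.55% by a KO island. With 12 windows, the lack of a touched window is not apart from these shares. The letters CG, searched as such and the same on both strands, occurred a median of 19.5 times in the 250 bases before the 12 starts, against 10 in all windows. In all windows 93.7% held CG at least once, and 51.3% at least 10 times. Of the windows with at least 10, 0.990% lay in a WT island and 0.408% in a KO island, against 5.60% and 6.86% of the rest. The 250 bases before the starts of the genes with an island inside them follow, to place those islands beside the sequence of the starts, 5′ to 3′ along the gene, with each CG in capitals.
Atf7ip, chr6:136518601-136518850, plus strand, GRCm38.p6: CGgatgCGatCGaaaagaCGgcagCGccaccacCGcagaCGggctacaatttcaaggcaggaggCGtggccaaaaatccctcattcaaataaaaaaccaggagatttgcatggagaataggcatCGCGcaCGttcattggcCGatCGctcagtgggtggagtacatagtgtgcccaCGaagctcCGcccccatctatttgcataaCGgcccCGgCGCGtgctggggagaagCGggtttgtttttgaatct
Tasor, chr14:27428584-27428833, plus strand, GRCm38.p6: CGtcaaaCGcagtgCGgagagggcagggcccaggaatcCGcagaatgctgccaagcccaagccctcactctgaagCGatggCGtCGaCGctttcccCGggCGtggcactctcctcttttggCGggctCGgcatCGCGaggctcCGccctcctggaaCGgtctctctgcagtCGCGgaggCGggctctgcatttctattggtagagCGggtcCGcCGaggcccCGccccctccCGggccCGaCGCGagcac
Kdm4c, start farther upstream, chr4:74242247-74242496, plus strand, GRCm38.p6: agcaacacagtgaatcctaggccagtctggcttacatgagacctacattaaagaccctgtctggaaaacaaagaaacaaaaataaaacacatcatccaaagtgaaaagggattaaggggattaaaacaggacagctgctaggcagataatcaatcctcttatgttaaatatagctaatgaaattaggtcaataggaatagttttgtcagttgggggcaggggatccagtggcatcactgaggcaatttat
Kdm4c, start farther downstream, chr4:74251629-74251878, plus strand, GRCm38.p6: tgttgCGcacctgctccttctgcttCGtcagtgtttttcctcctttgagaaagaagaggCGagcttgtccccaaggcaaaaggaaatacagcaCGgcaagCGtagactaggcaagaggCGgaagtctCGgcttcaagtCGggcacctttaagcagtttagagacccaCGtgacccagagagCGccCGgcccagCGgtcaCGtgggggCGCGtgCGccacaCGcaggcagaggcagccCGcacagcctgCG
CG occurred 20 times before the Atf7ip start and 27 times before that of Tasor. It occurred 0 times before the upstream Kdm4c start, where GC content was 39.6%, and 19 times before the downstream one, where it was 60.4%. Only windows at annotated starts were searched, and exons and introns were not used here, so an island inside a gene is placed by its distance from the start in the promoter table, the upstream one for Kdm4c.

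Among the methyltransferase genes, Suv39h2 and Setdb1 had more WT than KO cover, and Setdb2 and Ehmt1 had more KO than WT cover. Suv39h2 (chr2:3455815-3474986, minus strand) encodes the nearest relative of the deleted enzyme. Its WT island at chr2:3406501-3418000 was 11.5 kb long with 467 reads, or 40.6 reads per kb. It lay 37.8 kb beyond the 3′ end of the gene over Meig1, a gene of sperm formation, and the lncRNA gene Gm39750. The nearest KO island, chr2:3348501-3355000, lay 101 kb from Suv39h2, just outside the distance used, while the farthest island listed, a KO island at Trim28, lay 94.5 kb from its gene. No KO island overlapped the WT island.

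Setdb1 (chr3:95323525-95357202, minus strand) encodes the main trimethylating enzyme of euchromatic sites. A WT island of 9 kb with 487 reads lay at chr3:95374501-95383500, 17.3 kb upstream of the gene start. A KO island of 5 kb with 286 reads lay at chr3:95375001-95380000, wholly inside it. The density was 54.1 reads per kb in WT (95% Poisson interval 49.4 to 59.1) and 57.2 in KO (50.8 to 64.2), intervals that overlap. As depth is unknown and the islands differ in length, the overlap does not show equal signal. Both were among the densest of their own lists, at percentiles 97.9 and 99.3. No annotated gene lay under either, and the nearest protein-coding gene was 4930558C23Rik. This was the one overlapping pair in which the KO island had more reads per kb.

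Setdb2 (chr14:59402009-59440880, minus strand) encodes a related SET domain protein. Its islands lay on opposite sides of the gene. The WT island, chr14:59372501-59377500, held 266 reads over 5 kb downstream of the gene, 3.33 kb from the annotated readthrough transcript Gm45935 (Setdb2-phf11c). The KO island, chr14:59492001-59502000, held 351 reads over 10 kb inside Cab39l, 51.1 kb upstream. The WT island was dense, with 53.2 reads per kb (percentile 97.5 of the WT list), and the KO island was not, with 35.1 (percentile 2.96 of the KO list). With a distance of 50 kb in place of 100 kb the KO island dropped out.

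Ehmt1 (chr2:24790769-24919643, minus strand) encodes GLP, which with its partner G9a places mono- and dimethylation of H3K9. A KO island of 5.50 kb with 244 reads lay at chr2:24708001-24713500, 77.3 kb beyond its 3′ end inside Cacna1b, a calcium channel gene of neurons. The nearest WT island was 115 kb away. Ehmt1 itself, over 129 kb, held no island in either library.

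Trim28 and Atf7ip, which encode partners of SETDB1, each had 3 WT and 2 KO islands within 100 kb. Each methyltransferase gene had at most 1 per library. Of all autosomal protein-coding genes, 8.12% had more WT islands than that and 17.9% more KO islands than Trim28 or Atf7ip. Trim28 (chr7:13024152-13031032, plus strand) encodes the corepressor also named KAP1. All islands near it lay beyond the 3′ end of the gene, next to the vomeronasal pheromone receptor genes Vmn1r85, Vmn1r86 and Vmn1r87. The WT islands were 6, 12 and 6.50 kb long with 300, 527 and 295 reads. They lay at chr7:13078501-13084500 over Vmn1r85, at chr7:13099501-13111500 over Vmn1r86, and at chr7:13124501-13131000 beside Vmn1r87. The KO islands were 7.50 and 5.50 kb long with 284 and 235 reads, at chr7:13076501-13084000 and chr7:13125501-13131000. The KO islands thus met the outer WT islands, sharing 5.50 kb with each, and the WT island over Vmn1r86 had no KO partner. At the first site the density was 50 reads per kb in WT (44.5 to 56.0) and 37.9 in KO (33.6 to 42.5), at percentiles 95.5 and 22.0 of the lists. At the last it was 45.4 (40.4 to 50.9) and 42.7 (37.4 to 48.6). The reads were not scaled to depth, so these differences do not show a loss of the mark. The nearest island lay 47.5 kb from Trim28 in WT and 45.5 kb in KO.

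Atf7ip (chr6:136518789-136610850, plus strand) encodes a partner that stabilises SETDB1 and keeps it in the nucleus. Atf7ip alone among the 10 genes had islands of both genotypes inside it. A WT island of 11 kb with 521 reads, chr6:136523001-136534000, began 4.15 kb after the gene start. A KO island of 6.50 kb with 295 reads, chr6:136523501-136530000, began 4.65 kb after it and lay wholly within the WT island. Density was 47.4 reads per kb in WT (43.4 to 51.6) and 45.4 in KO (40.4 to 50.9), and the intervals overlap. The reads were not scaled to depth and the islands differ in length, so the overlap does not show equal signal. The list percentiles were alike, 92.1 and 89.2.

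Other islands at Atf7ip were in 1 genotype alone. A KO island of 5.50 kb with 240 reads lay farther inside the gene, at chr6:136565001-136570500. A WT island of 9.50 kb with 426 reads, chr6:136476001-136485500, lay 33.3 kb upstream. A WT island of 2.50 kb with 161 reads, chr6:136643001-136645500, lay downstream in Plbd1. At 64.4 reads per kb (54.8 to 75.2) this short island was the densest of all near the 10 genes, at percentile 99.4 of the WT list. Length inside the gene was alike in both libraries, 11 kb in WT and 12 kb in KO, while the whole window had 23 and 12 kb.

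In the HUSH complex, Tasor had the widest WT cover of the 10 genes, and Mphosph8 had cover close to the mean over all genes in WT. Tasor (chr14:27423674-27483555, plus strand) encodes the scaffold subunit of the complex. It had 5 WT islands over 39 kb and 1 KO island of 8.50 kb within 100 kb. The WT island inside the gene, chr14:27458001-27465500, was 7.50 kb long with 345 reads, or 46 reads per kb. It began 29.2 kb after the start used in the promoter table, position 27428834, which lies inside the annotated span of the gene. No KO island lay inside Tasor, and the nearest was 47.4 kb away.

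Downstream of Tasor, 4 WT islands stood in a row over 41 kb, from chr14:27518501 to 27559500, separated by gaps of 2, 3 and 4.50 kb. They held 441, 422, 254 and 316 reads, 1433 in all, and covered 31.5 kb beyond Ccdc66, the nearest protein-coding gene. The KO island, chr14:27531001-27539500, held 338 reads and lay wholly within the WT island chr14:27529501-27539500. Density in that pair was 39.8 reads per kb in KO (35.6 to 44.2) and 42.2 in WT (38.3 to 46.4). Among all autosomal protein-coding genes, 2.41% had more WT islands within 100 kb than Tasor, and 3.15% had a larger excess of WT cover.

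Mphosph8 (chr14:56668235-56697430, plus strand) encodes MPP8, the HUSH subunit whose chromodomain binds methylated H3K9. Its islands in both libraries lay downstream in Pspc1, a gene of nuclear paraspeckles, and did not meet. The WT island, chr14:56717001-56729000, was 12 kb long with 550 reads. The KO island, chr14:56743001-56750000, was 7 kb long with 308 reads. Densities were 45.8 and 44.0 reads per kb. The cover was 12 kb in WT and 7 kb in KO.

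Cbx5 (chr15:103191546-103239904, minus strand) encodes HP1 alpha, a reader of the mark. It was the emptiest of the 10 loci. The nearest WT island lay 301 kb away and the nearest KO island 316 kb away. Its place as the 1 gene of 10 without islands is not apart from the 39.7% of all genes in that class.

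Kdm4c (chr4:74242497-74405864, plus strand) encodes a demethylase that removes H3K9 trimethylation, and it was the gene with most KO cover. Within 100 kb, 2 WT islands covered 18.5 kb and 5 KO islands 51 kb. The only island inside the gene, chr4:74378501-74388000, was a KO island of 9.50 kb with 318 reads. It began 136 kb after the upstream gene start, toward the 3′ end. Its 33.5 reads per kb (29.9 to 37.4) lay at percentile 0.488 of the KO list, among the weakest islands called. A call so close to the lowest density does not show that the mark is absent there in WT.

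On the flanks of Kdm4c the libraries met at 2 places. Upstream in Frmd3, the WT island chr4:74193501-74200000 (302 reads) lay wholly within the KO island chr4:74192501-74204500 (489 reads). Downstream of the gene, the WT island chr4:74419001-74431000 (481 reads) and the KO island chr4:74424501-74434000 (348 reads) shared 6.50 kb. KO islands without a WT partner lay farther out, at chr4:74144501-74155000 (394 reads) in Frmd3 and at chr4:74476501-74486000 (410 reads) outside genes. The 5 KO islands ran from 33.5 to 43.2 reads per kb. Of all autosomal protein-coding genes, 7.79% had more KO islands within 100 kb and 6.92% a larger excess of KO cover. Kdm4c is also the longest of the 10 genes, and its window held 1 other protein-coding gene, Frmd3.

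**Figure D2:**
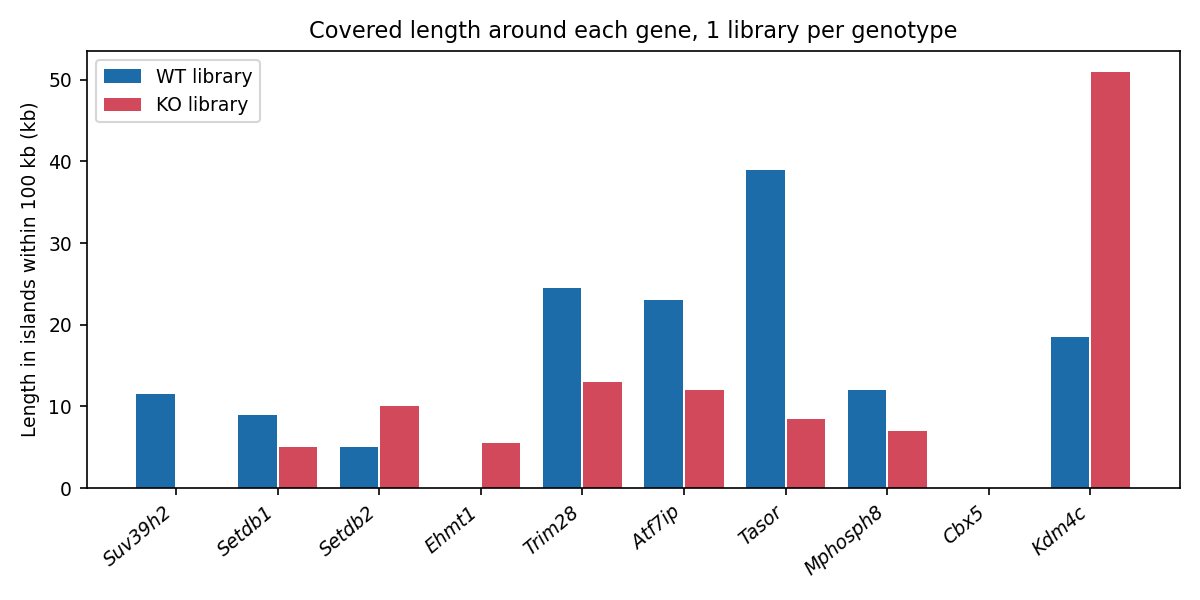
Length in kb covered by islands within 100 kb of each gene (vertical axis), as 1 bar per library, WT in blue and KO in red, with no error bars since each genotype has 1 library. Tasor stands out for WT with 39 kb and Kdm4c for KO with 51 kb, and Cbx5 is at 0 in both.

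**Figure D3:**
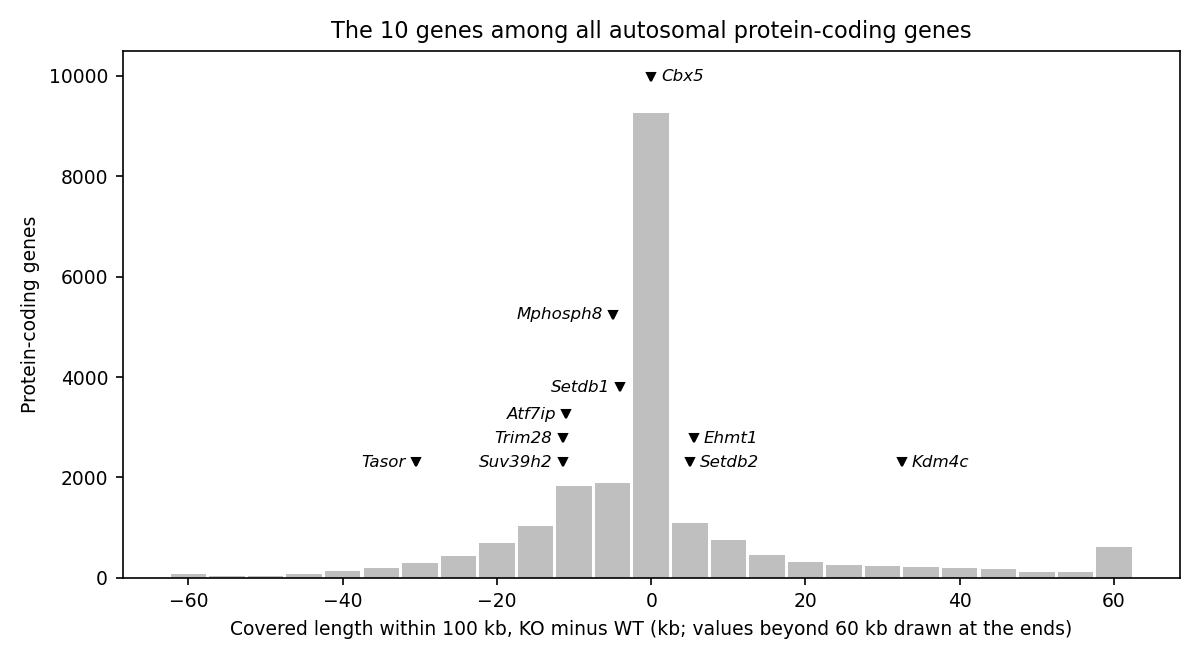
Difference in covered length within 100 kb, KO minus WT in kb (horizontal axis), for 20558 autosomal protein-coding genes (grey bars, number of genes). Triangles give the values of the 10 genes, and their height has no meaning. Tasor lies at -30.5 kb and Kdm4c at 32.5 kb, with the other 8 genes between -11.5 and 5.50 kb.

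Where islands of the libraries met, they met over most of their length. There were 7 overlapping pairs, at 5 genes, sharing 5 to 8.50 kb each and 44 kb in all. That is 30.9% of the WT cover and 39.3% of the KO cover. The KO island lay wholly within the WT island in 4 pairs, the WT island within the KO island in 1, and 2 pairs overlapped in part. Of the WT islands, 7 of 17 (41.2%, exact 95% interval 18.4 to 67.1) were overlapped by KO, against 43.2% of WT islands within 100 kb of any autosomal protein-coding gene. Of the KO islands, 7 of 14 (50%, 23.0 to 77.0) were overlapped by WT, against 29.1%. Both intervals hold the share over all such islands. They treat islands as independent, though neighbouring islands share their locus and both counts come from the same 7 pairs. The comparison is therefore a description.

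The WT islands near these genes were denser than most of the WT list. Their reads per kb ran from 40.1 to 64.4 with a median of 46, against a list median of 40.4. Of the 17, 16 lay above the list median (94.1%, 71.3 to 99.9), against 54.6% of WT islands within 100 kb of autosomal protein-coding genes and 64.2% of those also of 2.50 to 12 kb in length. Of the 17, 7 lay above the 90th percentile, against 12.0%. The island below the list median was the one downstream of Kdm4c. Neighbouring islands share their locus, so the islands are not independent.

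The KO islands lay nearer the middle of their own list. Their reads per kb ran from 33.5 to 57.2 with a median of 41.7, against a list median of 40.1. Of the 14, 8 lay above the list median (57.1%, 28.9 to 82.3), against 51.5% of KO islands near genes and 52.4% of those also of 5 to 12 kb. Only the island at Setdb1 lay above the 90th percentile, against 11.5%. Of the overlapping pairs, 6 of 7 had more reads per kb in WT, without scaling to depth. Each density was taken over the island's own length, which differed within pairs. The same share over all overlapping pairs of the lists was not computed, so this count is a description.

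**Figure D4:**
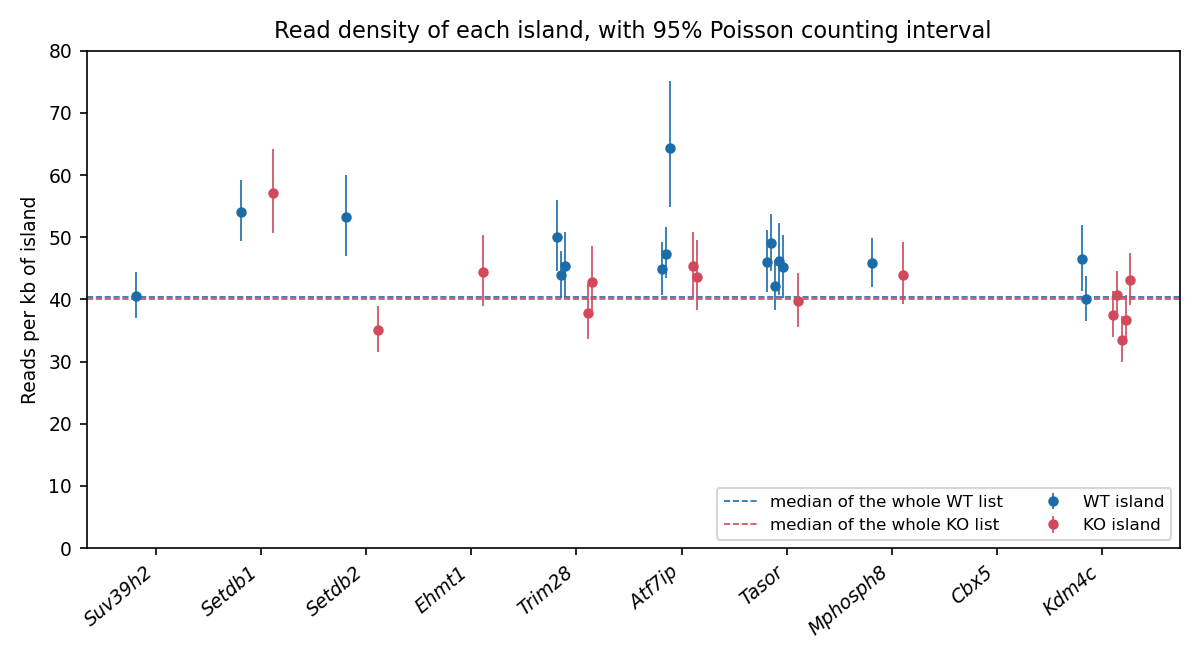
Reads per kb of each island near the 10 genes (points), with 95% Poisson intervals for counting of reads (bars). Dashed lines give the medians of the whole lists, 40.4 in WT and 40.1 in KO. WT points (blue) lie above the line in 16 of 17 cases and KO points (red) in 8 of 14.

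Other genes of H3K9 methylation were read from a list of 23, of which 20 are autosomal. With 2 kb on each side, WT islands were found at 2 of them and KO islands at 5, so 2 had one in both, 0 in WT alone, 3 in KO alone and 18 in neither. Over all autosomal protein-coding genes the shares were 14.8% (WT), 14.5% (KO), 8.03% (both), 6.77% (WT alone) and 6.52% (KO alone). Of the 23 genes, 3 lie on chromosome X, where few islands were called and which these shares leave out. Counts this small are not set apart from those shares. Kdm4d, a testis-linked demethylase gene of the KDM4 family, was covered over 15.5 kb in WT and 13 kb in KO by islands that overlapped. Morc2a, an ATPase gene that acts with HUSH, had islands ending just before the gene in both, chr11:3632501-3648000 in WT and chr11:3637501-3648000 in KO. Atf7ip2, a relative of Atf7ip, had 2 islands in KO alone at this distance, 28.5 and 6.50 kb long. Of their length, 25.9 kb lay over the gene or within 2 kb. The longer had 36.9 reads per kb (percentile 12.6 of the KO list) and the shorter 41.8 (percentile 68.9). Jmjd1c, a gene of the KDM3 demethylase family, had 8.50 kb in KO alone, at 38.4 reads per kb (percentile 27.7). With whole-library depth unknown, the lack of a WT call at these genes does not show that the mark is absent there in WT. Kdm3a had a KO island of 2 kb beside its start, at chr6:71633501-71635500, with 130 reads, or 65 reads per kb (percentile 99.7). Within 100 kb, Kdm3a had 3 WT islands over 20.5 kb, against 1 KO island of 2 kb. Within 100 kb, 9 of the 20 autosomal genes had more WT cover and 3 more KO cover. The 3 genes on chromosome X had no island in that window. Over all autosomal protein-coding genes the shares were 35.5% and 24.2%, and these counts are too small to stand apart from them. The summed cover was 131 kb (WT) and 138 kb (KO), of which Atf7ip2 made 15 and 74.9 kb.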

How the data were processed

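Islands of H3K9me3 were taken from 1 deposited list per genotype. Per the submitters' processing notes, Bowtie2, SICER 1.1 and mm10 were used. Window, gap, false discovery threshold, duplicate handling and use of the input: not given in the sources used here, so the effect of the input on the calls cannot be judged. The authors' deposited whole-number count per island has no header and was read as ChIP reads, with no scaling to depth or input. Coordinates lie on a 500 bp grid and were converted to positions counted from 1.

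Islands within 100 kb of each gene were listed with Python 3.11.15 and pandas 2.3.3, and reads per kb are the count over the length. An island was overlapped when it shared at least 1 bp with the other list. Binomial (Clopper-Pearson) and Poisson intervals of 95% came from scipy 1.17.1. Interval functions were tested on simulated data. Genes on scaffolds were left out by table order and position. Members and lists were chosen with earlier results of these data known. All 10 members are named, and other genes only with an island over them or within 2 kb, or as neighbours of a listed island. The range of neighbours, the length range and the promoter comparison were chosen after the data were seen. Alternatives were other distances, denser or longer islands, a reduced KO list and a stricter overlap.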

Additional observations from a re-analysis of the deposited data

How the results depend on the processing

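No paired analysis was possible because there was 1 library per genotype. Whole-library depth and input signal are unknown, so an island missing from a list does not show absence of the mark. Islands of at least 2 kb and an overlap of at least 50% changed no value. Among islands with reads per kb above their list's median, WT had 16 islands over 130.5 kb and KO had 8 over 56.5 kb. WT and KO then had 4 overlapped islands each, and both genotypes shared 23.5 kb. KO minus WT cover was -74 kb rather than -30.5 kb, and 1 of the 10 genes had a KO island over it. With the KO list reduced to the WT number by reads, which can only lower KO, KO had 4 islands over 42 kb, near 2 genes and over 0. WT and KO then had 1 overlapped island each, 6.50 kb was shared, the difference was -100.5 kb and 3 other genes had a KO island. With 50 kb, WT had 13 islands over 102 kb and KO 9 over 59.5 kb, and the difference was -42.6 kb. With 200 kb, WT had 31 islands over 347 kb and KO 28 over 259.5 kb, of which 15 and 16 were overlapped, 141.5 kb was shared and the difference was -87.3 kb; a wider window holds more by construction. Without the 2 kb, 1 other gene had a WT island and 3 a KO island. KO minus WT cover changed sign at Setdb2 (-5 kb above the median or with 50 kb, rather than 5 kb), Ehmt1 (-14.1 kb with 200 kb, rather than 5.50 kb) and Trim28 (2 kb with 50 kb, rather than -11.5 kb). Tasor stayed negative (-56.5 to -18 kb) and Kdm4c positive (12.5 to 56 kb) in every setting run.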
